A study of Arabidopsis thaliana with 6 samples.

Results

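LHY, CCA1 and the REVEILLE genes RVE1 to RVE8 are 10 loci of Arabidopsis thaliana that encode related MYB-like transcription factors of the circadian clock. They were chosen by locus identifier as a gene family, with no cut on their values but with earlier results of these data known. They were taken from 33557 genes of a deposited gene table and from the matching table of transcription start groups. RNA came from whole 10-day-old seedlings of the Col ecotype, grown horizontally on 1/4 MS medium with 0.5% sucrose and given no treatment. There were 6 libraries, 3 labelled wild-type and 3 labelled CPL4 knockdown (CPL4RNAi, RNA interference against the RNA polymerase II phosphatase gene CPL4). The sources used here do not give the promoter of the RNA interference construct, the number of independent lines, the light regime or the hour of harvest. Every level below is an FPKM, a count of fragments scaled to transcript length and library size, of which the authors deposited 1 value per genotype over its 3 replicates. The spread between replicates is therefore not known for these genes, no error can be put on a level or a ratio, and the depth behind each value is unknown.

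LHY and CCA1 accumulate around dawn and repress genes that peak later in the day, among them the pseudo-response regulators, the evening complex and GI. They bind the evening element, a short promoter sequence. RVE8, RVE4 and RVE6 bind the same element but act mainly as activators, helped by the LNK coactivators, and RVE3 and RVE5 are their close relatives. RVE1, RVE2 (also CIR1) and RVE7 (also EPR1) form the remaining branch: RVE1 links the clock to auxin synthesis through YUC8 and to the chlorophyll synthesis gene PORA.

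In the libraries labelled CPL4 knockdown, 4 of the 9 tested members were called higher, 1 was called lower and 4 were not called, at a deposited q-value under 0.05 from the authors' own Cuffdiff test. RVE3 was not tested. Across the gene table, 22.5% of 18038 tested genes were called, 12.7% higher and 9.78% lower. The members called higher were LHY, CCA1, RVE8 and RVE1, and the member called lower was RVE2. The median log2 ratio was 0.11 over the tested members and −0.0035 over all tested genes.

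The series-wide checks that touch these values were as follows. CPL4, the target, had 4.92 FPKM in wild type but 8.84 FPKM in the labelled knockdown, so its value went against its label (q = 6.39e-04 in the authors' deposited table). Whether reads of the RNA interference construct count toward this value was not tested. The value therefore does not show how far the gene itself was silenced. Every direction here is drawn from the labels. Shoot genes (RBCS1A, 4637 FPKM in wild type) and root genes (SCR, 10.3 FPKM, and SHR, 6.55 FPKM) were both present. Between genotypes, the root genes IRT1 (2.47 to 7.17 FPKM, q = 6.39e-04) and SHR (6.55 to 8.84 FPKM, q = 0.0382) were called higher and the shoot gene CAB1 (15003 to 9631 FPKM, q = 0.00211) was called lower in the authors' deposited table. SCR, RBCS1A and the root gene PIP2F were not called. The part of tissue make-up in the results below was not tested. All 18038 tested genes reached 1 FPKM in at least 1 genotype. LHY and RVE8 lay under 1 FPKM in wild type and so met this level only in the labelled knockdown, where they are higher. Of the 680 tested genes under 1 FPKM in wild type, 41.8% were called higher. Of the 7 members at 1 FPKM or more in both genotypes, 2 were called higher and 1 lower, beside 21.7% called either way among the 16960 tested genes of that kind. In bulk RNA of whole seedlings, fewer cells of a type and less RNA per cell cannot be told apart. A genotype difference and a difference in the hour of harvest cannot be told apart either, since the hour is not given.

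The upstream sequences of LHY, CCA1, RVE1 and RVE2 are shown because these 4 of the 5 called members hold the same short motif near the gene start, which RVE8, not printed, does not. The G-box, the letters CACGTG on either strand (a palindrome), is bound by bHLH and bZIP factors of light signalling. The sequences are the 250 bases before the RefSeq gene start in the assembly TAIR10.1, 5′ to 3′ along the gene, and none of these windows overlaps another annotated gene. Capitals mark the G-box and, in RVE2, also the letters AAAAATCT, known as the CCA1-binding site.
LHY (chr1:37872-38121, minus strand): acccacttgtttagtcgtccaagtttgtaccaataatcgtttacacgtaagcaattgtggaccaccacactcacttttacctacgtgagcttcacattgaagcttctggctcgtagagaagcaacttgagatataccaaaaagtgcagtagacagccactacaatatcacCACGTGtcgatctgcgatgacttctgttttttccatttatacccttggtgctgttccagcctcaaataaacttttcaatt
CCA1 (chr2:19245341-19245590, plus strand): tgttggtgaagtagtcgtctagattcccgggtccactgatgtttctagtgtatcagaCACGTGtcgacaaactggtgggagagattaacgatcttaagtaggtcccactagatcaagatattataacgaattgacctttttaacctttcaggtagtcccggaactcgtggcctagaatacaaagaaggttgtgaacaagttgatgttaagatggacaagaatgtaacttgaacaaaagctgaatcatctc
RVE1 (chr5:5692993-5693242, minus strand): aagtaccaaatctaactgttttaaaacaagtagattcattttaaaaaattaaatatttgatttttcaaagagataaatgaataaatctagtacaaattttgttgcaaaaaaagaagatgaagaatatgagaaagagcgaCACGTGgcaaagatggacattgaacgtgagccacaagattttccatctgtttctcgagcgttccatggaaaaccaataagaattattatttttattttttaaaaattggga
RVE2 (chr5:14753089-14753338, minus strand): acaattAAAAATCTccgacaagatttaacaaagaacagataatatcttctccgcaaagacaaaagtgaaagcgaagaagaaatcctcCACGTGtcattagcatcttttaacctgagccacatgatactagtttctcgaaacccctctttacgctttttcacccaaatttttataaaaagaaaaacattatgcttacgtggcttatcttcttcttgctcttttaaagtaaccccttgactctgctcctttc
The G-box lay 75 bases before the start of LHY, 188 before CCA1, 106 before RVE1 and 158 before RVE2. Within 250 bases, 6 of the 10 members held it (these 4, RVE3 and RVE5), beside 6.49% of 27444 protein-coding genes. Among the 54 genes of the clock lists described below, 9 (16.7%) held it. The members are related genes, so their share describes the family and is no test. RVE8 held no G-box in this window and held 2 within 1000 bases. RVE2, which fell, held it as did LHY, CCA1 and RVE1, which rose. RVE5, which was not called, and RVE3, which was not tested, held it too. The CCA1-binding site (AAAAATCT, both strands) was found within 250 bases of RVE2 and RVE6, beside 6.69% of all protein-coding genes. The evening element (AAAATATCT, both strands) was found within 250 bases of RVE7 alone among the members, beside 2.36% of all protein-coding genes. The 3 motifs share no full match with one another. A match describes letters in a window and not a bound site.

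**Figure D1:**
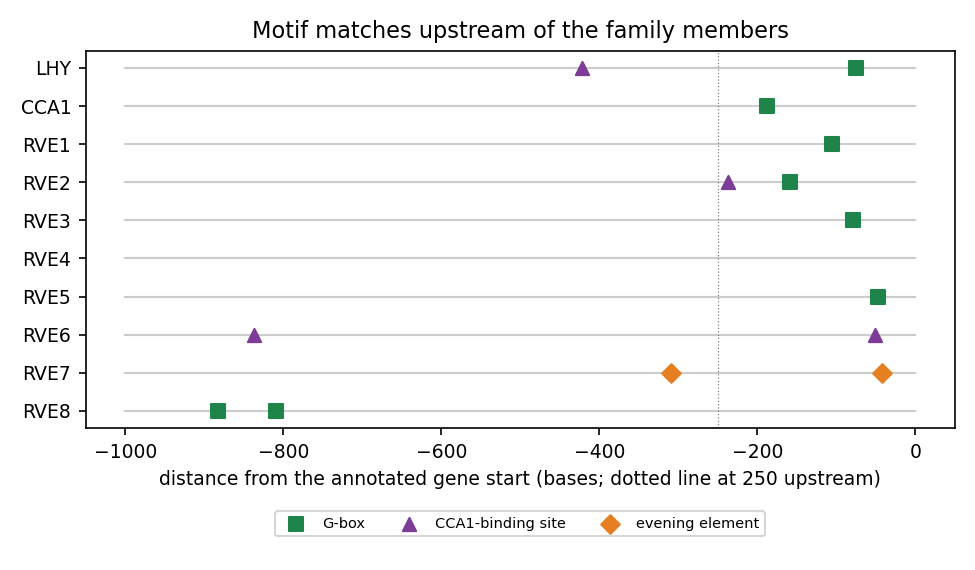
Matches to the G-box (squares), the CCA1-binding site (triangles) and the evening element (diamonds) on either strand in the 1000 bases before the RefSeq start of each of the 10 members, in bases from the start. Of the 10 members, 6 have a G-box within the 250 bases nearest the start (right of the dotted line), and RVE4 has no match to any of the 3 motifs.

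LHY showed the largest ratio of the family. LHY (AT1G01060, chromosome 1, 33379 to 37871, TAIR10, minus strand) went from 0.461 FPKM in wild type to 7.38 FPKM in the labelled knockdown, 16.0-fold higher (q = 6.39e-04 in the authors' deposited table). Its log2 ratio of 4.00 ranked 42 from the highest and 17920 from the lowest among 17961 tested genes with a finite ratio. Only 5 tested genes had a larger ratio from a wild type level at least as high. All tested genes reached 1 FPKM in at least 1 genotype, and LHY did so only in the labelled knockdown, where it is higher. Its rank and this count therefore describe the value and are no test. In wild type 1.16% of tested genes lay below LHY, and in the labelled knockdown 46.7%. The fold rests on a low wild type value: with 1 FPKM added to both levels the log2 ratio was 2.52.

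CCA1, the close partner of LHY in the clock, rose less but from a higher level. CCA1 (AT2G46830, chromosome 2, 19245672 to 19248914, TAIR10, plus strand) went from 3.41 FPKM in wild type to 8.96 FPKM in the labelled knockdown, 2.62-fold higher (q = 6.39e-04 in the authors' deposited table). The level of LHY was 0.135 of that of CCA1 in wild type and 0.824 in the labelled knockdown. Together the pair made up 5.60% of the summed FPKM of the 10 members in wild type and 19.8% in the labelled knockdown. The sum over all 10 members was 69.2 FPKM in wild type and 82.6 FPKM in the labelled knockdown.

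**Figure D2:**
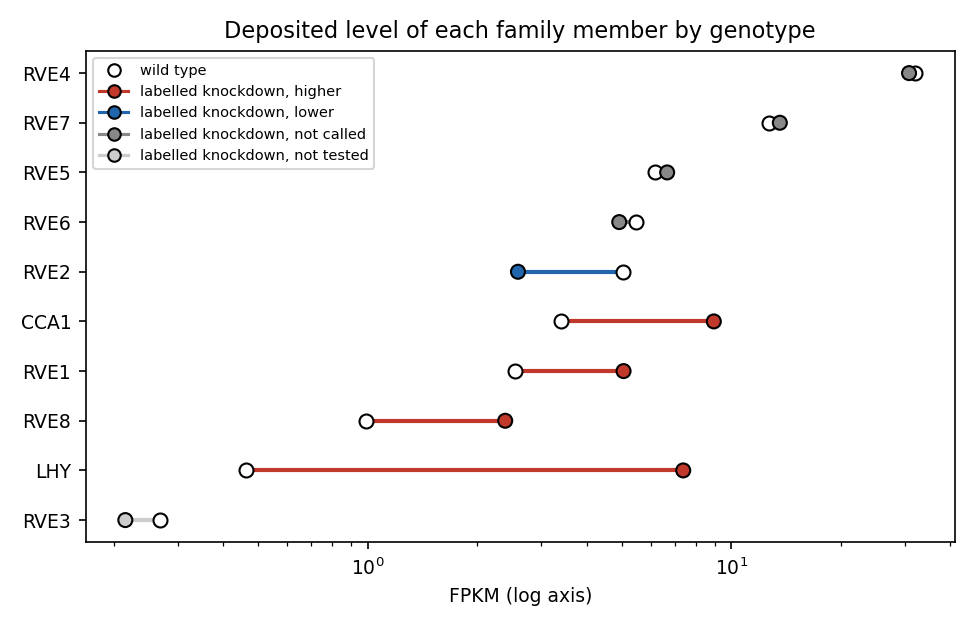
Deposited FPKM (log axis) of each member, 1 value per genotype over 3 replicates, wild type as open and labelled knockdown as filled circles, coloured by the authors' call. LHY spans 0.461 to 7.38 FPKM, whereas RVE4, RVE5, RVE6 and RVE7 have both circles close together.

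Among the activator branch, RVE8 rose and its relatives RVE4 and RVE6 were not called. RVE8 (AT3G09600, chromosome 3, 2946406 to 2948995, TAIR10, plus strand) went from 0.992 to 2.39 FPKM, 2.41-fold higher (q = 0.00484 in the authors' deposited table). RVE4 (AT5G02840, chromosome 5, 648704 to 651972, also LCL1) was the most abundant member, at 32.1 FPKM in wild type and 30.8 FPKM in the labelled knockdown (q = 0.812 in the authors' deposited table). RVE6 (AT5G52660, chromosome 5, 21359059 to 21362160) stood at 5.47 and 4.92 FPKM (q = 0.624 in the authors' deposited table). The summed level of RVE4, RVE6 and RVE8 was 38.5 FPKM in wild type and 38.2 FPKM in the labelled knockdown. In that sum the rise of RVE8 was offset by the lower, uncalled values of RVE4 and RVE6. RVE8 stood at 0.0309 of the level of RVE4 in wild type and at 0.0775 in the labelled knockdown.

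RVE5 and RVE3, the relatives with lesser known roles, gave no call. RVE5 (AT4G01280, chromosome 4, 535211 to 537322) stood at 6.16 FPKM in wild type and 6.66 FPKM in the labelled knockdown (q = 0.713 in the authors' deposited table). In RefSeq, 681 of its 2246 exonic bases are shared with AT4G01290 on the opposite strand, and the sources used here do not say whether the counting used strand. The deposited loci of the 2 genes do not overlap. RVE3 (AT1G01520, chromosome 1, 190596 to 192139, also ASG4) was the lowest member in both genotypes, at 0.268 and 0.215 FPKM.

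In the RVE1 branch the called members moved in opposite directions. RVE1 (AT5G17300, chromosome 5, 5690227 to 5692902, TAIR10, minus strand), the regulator of auxin and greening, went from 2.54 to 5.06 FPKM, 1.99-fold higher (q = 6.39e-04 in the authors' deposited table). RVE2 (AT5G37260, chromosome 5, 14751344 to 14753088, TAIR10, minus strand) went from 5.02 to 2.59 FPKM, 1.94-fold lower (q = 0.00686 in the authors' deposited table). The level of RVE1 was 0.507 of that of RVE2 in wild type and 1.95 times it in the labelled knockdown. RefSeq places AT5G17305 on the opposite strand over 225 of the 2017 exonic bases of RVE1, and no other deposited locus overlaps RVE1.

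RVE7, the third gene of that branch, stood at 12.7 and 13.6 FPKM (AT1G18330, chromosome 1, 6305966 to 6308013; q = 0.709 in the authors' deposited table). Some of its reads may be hard to place. Of its 1781 distinct exonic words of 50 bases, 58.8% also occur in the chromosome 3 loci AT3G10110 and AT3G10113. The reads were pairs of 100 bp, longer than these words, and longer words were not searched. AT3G10113 had 0.0842 FPKM in wild type, was listed at 0 in the labelled knockdown and was not tested. The level of AT3G10110 was not examined here. The sources used here do not say how reads that fit several places were shared out, and the value of RVE7 is uncertain. Of the other 9 members, 8 had no such word elsewhere in the genome and RVE2 had 2 of 735.

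The order of levels, which FPKM allows since it is per length, changed in its middle. In wild type it ran RVE4, RVE7, RVE5, RVE6, RVE2, CCA1, RVE1, RVE8, LHY, RVE3 from highest to lowest. In the labelled knockdown it ran RVE4, RVE7, CCA1, LHY, RVE5, RVE1, RVE6, RVE2, RVE8, RVE3. LHY went from rank 9 to rank 4 and RVE2 from rank 5 to rank 8. Which neighbours differ beyond their replicate spread was not tested, since these tables hold 1 value per genotype.

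**Figure D3:**
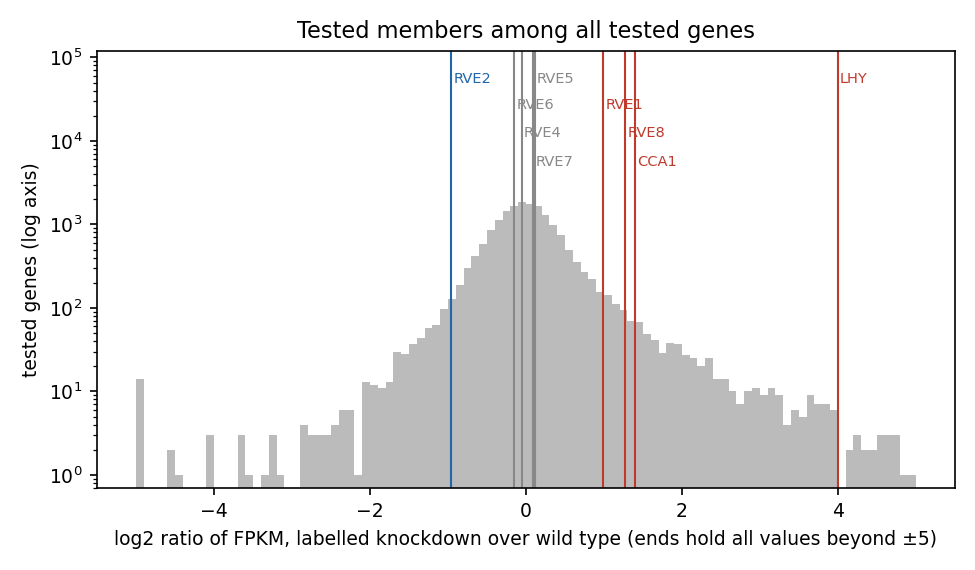
Histogram of the log2 ratio of FPKM, labelled knockdown over wild type, for 17961 tested genes (log count axis), with a line at each of the 9 tested members in the colour of its call. LHY lies at 4.00 in the thin right tail, CCA1, RVE8 and RVE1 at 1.39, 1.27 and 0.99, RVE2 at −0.96, and the other 4 from −0.15 to 0.11.

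The start group table splits a gene by where its transcripts begin, and it listed 17 groups for the 10 members. Of these, 13 were tested, 4 were called higher and 1 lower. Of all 20159 tested start groups, 17.5% were called, 10.2% higher and 7.34% lower. RVE1, RVE2, RVE3, RVE6 and RVE8 have 1 group each, which repeats the gene value. The file gives the locus of the gene and not the position of each start, so groups are numbered here by their level in the labelled knockdown.

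LHY was split into 4 groups, none of which was called although the gene was. Its group 1 went from 0.00123 to 3.95 FPKM (q = 0.425 in the authors' deposited table). Its group 2 went from 0.315 to 3.06 FPKM (q = 0.0847 in the authors' deposited table). Group 3 stood at 0.145 and 0.369 FPKM, group 4 was at or near 0 in both genotypes, and neither was tested. Group 1 thus held 0.267% of the summed LHY level in wild type and 53.5% in the labelled knockdown, and group 2 held 68.3% and 41.5%. With so low a wild type level, and without a call for any group, no shift between starts is shown. Of 742 genes with 2 or more start groups that were called as genes, 51.6% had no start group called, as LHY did.

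Both start groups of CCA1 were called higher. The more abundant group went from 2.72 to 6.13 FPKM (q = 7.81e-04 in the authors' deposited table). The other went from 0.688 to 2.82 FPKM (q = 0.00982 in the authors' deposited table). Its share of CCA1 was 20.2% in wild type and 31.5% in the labelled knockdown, a difference that was not tested. RVE4 had a main group at 30.3 FPKM in wild type and 30.2 FPKM in the labelled knockdown and a minor one at 1.76 and 0.629 FPKM (q = 0.636 in the authors' deposited table). The groups of RVE5 stood at 4.43 and 4.94 FPKM and at 1.74 and 1.72 FPKM, and those of RVE7 at 12.1 and 12.7 FPKM and at 0.658 and 0.871 FPKM. No tested group of RVE4, RVE5 or RVE7 was called.

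**Figure D4:**
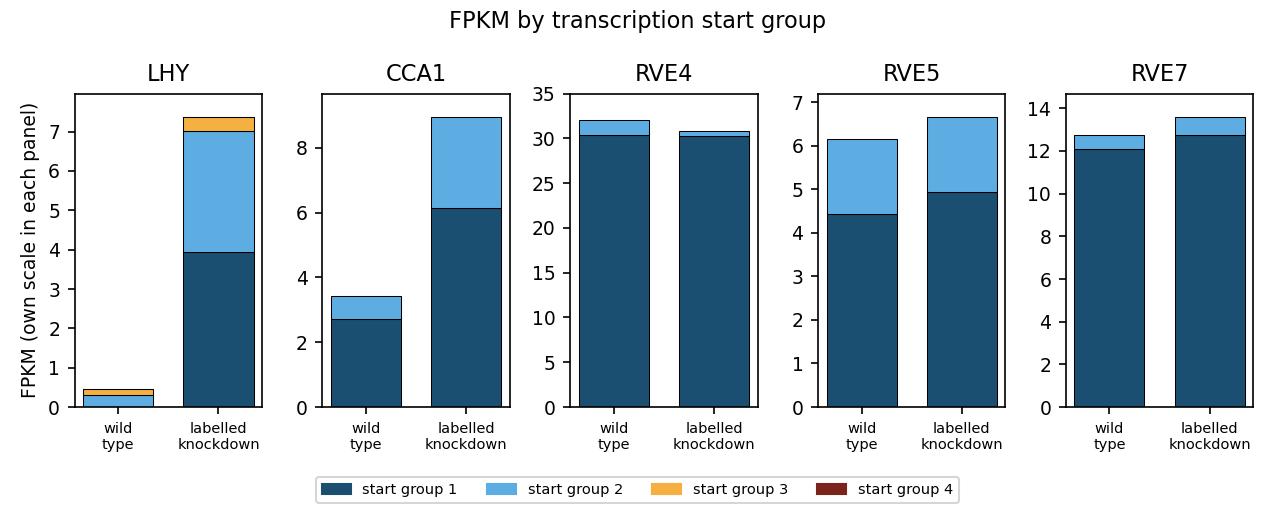
FPKM of each transcription start group (stacked, numbered by level in the labelled knockdown) in wild type and labelled knockdown for the 5 members with more than 1 group, each panel on its own axis from 0. The LHY bar goes from 0.461 to 7.38 FPKM with group 1 visible only in the labelled knockdown, both CCA1 groups are taller there, and the RVE4, RVE5 and RVE7 bars are of similar height.

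The genes that the family regulates or works with were read from lists of 54 clock genes. Of the 52 tested, 12 were called higher and 14 lower, beside 12.7% and 9.78% of all tested genes. The lists were chosen with earlier results of these data known. The counts here and for each list below therefore describe the lists and are no test. The 4 LNK genes, coactivators of the RVE8 branch, had 3 called higher and 0 lower. At an unadjusted p under 0.05 in the authors' Cuffdiff test all 4 were higher and 0 lower, a rule by which 18.0% of all tested genes were higher and 15.7% lower. LNK3 went from 3.79 to 10.8 FPKM, 2.84-fold, LNK4 from 9.98 to 17.0 FPKM, 1.71-fold, and LNK1 from 23.7 to 30.9 FPKM, 1.30-fold. LNK2 stood at 27.2 and 34.3 FPKM (q = 0.0578 in the authors' deposited table). The median log2 ratio of the LNK list was 0.58.

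Of the 5 pseudo-response regulators, repressors that act in sequence through the day, 1 was called higher and 3 lower. Among all tested genes 12.7% were called higher and 9.78% lower. PRR9, the earliest of them, went from 1.89 to 6.76 FPKM, 3.58-fold higher. PRR3 went from 14.7 to 5.04 FPKM, 2.91-fold lower, TOC1 from 57.9 to 36.8 FPKM, 1.57-fold lower, and PRR7 from 55.8 to 42.9 FPKM, 1.30-fold lower. PRR5 was not called, at 62.8 and 56.4 FPKM (q = 0.433 in the authors' deposited table). The list had a median log2 ratio of −0.38.

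Of 8 genes of the evening complex, GI and the ZTL family, 0 were called higher and 5 lower, beside 12.7% and 9.78% of all tested genes. The counts were the same at an unadjusted p under 0.05 in the authors' Cuffdiff test. By that rule 18.0% of all tested genes were higher and 15.7% lower. ELF4 went from 18.7 to 10.6 FPKM, 1.76-fold lower, and its partners ELF3 from 29.0 to 20.2 FPKM and LUX from 60.4 to 42.4 FPKM. BOA, the relative of LUX, went from 3.78 to 2.36 FPKM, and the photoperiod gene FKF1 from 52.2 to 33.6 FPKM. GI, ZTL and LKP2 were not called, with log2 ratios from −0.15 to 0.17. The median of this list was −0.52.

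Of 10 genes listed here as regulators of CCA1 and LHY transcription, 1 was called higher and 1 lower. These counts are near the 12.7% and 9.78% of all tested genes. Whether each listed gene, TZP among them, acts on CCA1 or LHY was not tested. TZP was called higher, from 9.06 to 16.0 FPKM, and the histone demethylase gene JMJD5 lower, from 10.5 to 6.71 FPKM. The other 8, among them CHE, LWD1, LWD2, FHY3 and HY5, had log2 ratios from −0.15 to 0.14 and were not called. Of 5 genes for casein kinase subunits and other partners of the CCA1 and LHY proteins, 0 were called in either direction. At an unadjusted p under 0.05 in the authors' Cuffdiff test 0 were called too, beside 18.0% higher and 15.7% lower of all tested genes.

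Of 20 tested output genes of the clock, 7 were called higher and 5 lower, beside 12.7% and 9.78% of all tested genes. PORA, which RVE1 binds, went from 4.03 to 32.5 FPKM, 8.06-fold higher, and the auxin synthesis gene YUC8, another RVE1 target, from 2.80 to 4.59 FPKM, 1.64-fold higher. The catalase gene CAT2 went from 169 to 456 FPKM, 2.70-fold higher. The DOF factor genes CDF1 (1.47-fold), CDF2 (1.86-fold) and CDF3 (20.3 to 30.4 FPKM) and the phytochrome-interacting factor gene PIF5 (1.27-fold) were also called higher. The RNA-binding protein gene GRP7 went from 824 to 331 FPKM, 2.49-fold lower, and its relative GRP8 from 49.6 to 30.8 FPKM, 1.61-fold lower. COR27, a repressor of clock genes, went from 21.9 to 8.56 FPKM, 2.56-fold lower, and AT4G33980 from 20.9 to 8.06 FPKM, 2.59-fold lower. CAB1 was called lower (15003 to 9631 FPKM), CAB2 and CAB3 were not, and reads of these near-identical antenna genes may be shared among them. The 3 tandem cold factor genes CBF1, CBF2 and CBF3 were not called.

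**Figure D5:**
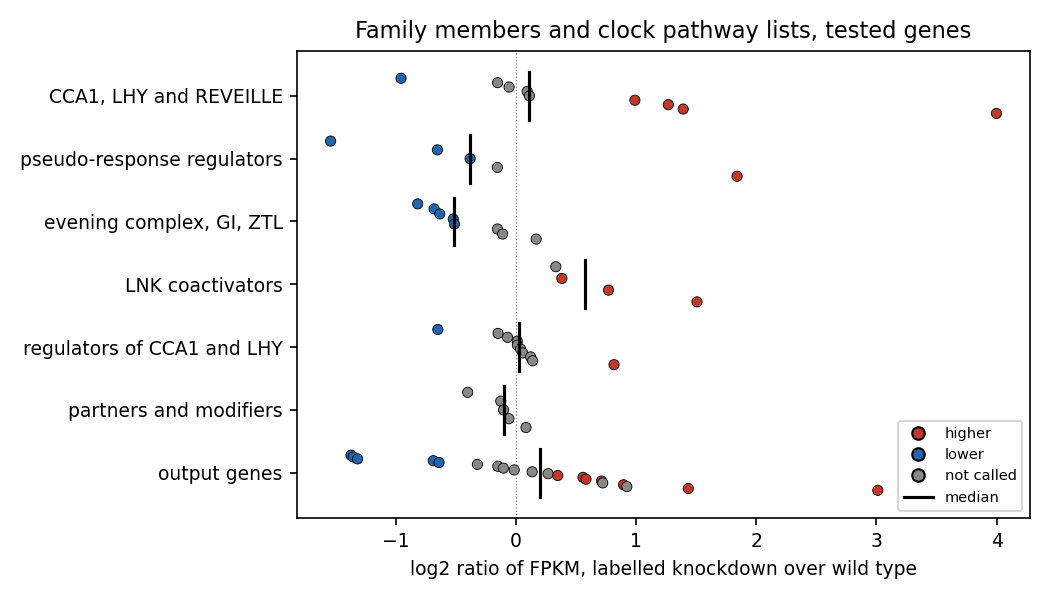
Log2 ratio of FPKM, labelled knockdown over wild type, for each tested gene of the family and of 6 clock lists, coloured by the authors' call, with the list median as a bar. Medians run from −0.52 for the evening complex list to 0.58 for the LNK list, and the family spreads from RVE2 at −0.96 to LHY at 4.00.

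The evening element was searched in the same lists because LHY, CCA1 and RVE8 bind it. Within 250 bases before the RefSeq start, 7 of the 14 pathway genes called lower held it, as did 2 of the 12 called higher (PORA and TZP) and 2 of the 26 not called. Among all protein-coding genes 2.36% did. These lists were put together from genes known as clock targets, many of them for this element, so the shares describe the lists and are no test. For 6 called genes, the element nearest the start that has 15 upstream bases on each side is printed with them. It is given along its own strand in TAIR10.1 and in capitals. FKF1, called lower, and TZP, called higher, also hold one with such flanks within 250 bases and are not printed. In GRP8, called lower, the element lay 4 bases before the start, too near for such flanks. COR27 holds another element, 12 bases before its start.
TOC1 (chr5:24674797-24674835, minus strand): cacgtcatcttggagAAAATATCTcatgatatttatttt
LUX (chr3:17182974-17183012, plus strand): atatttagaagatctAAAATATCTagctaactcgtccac
BOA (chr5:24003830-24003868, minus strand): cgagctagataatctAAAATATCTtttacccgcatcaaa
COR27 (chr5:17199926-17199964, plus strand): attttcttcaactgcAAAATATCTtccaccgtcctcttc
GRP7 (chr2:9266565-9266603, minus strand): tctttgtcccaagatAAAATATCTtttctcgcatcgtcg
PORA (chr5:21992971-21993009, minus strand): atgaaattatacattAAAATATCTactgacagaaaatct
TOC1, LUX, BOA, COR27 and GRP7 were called lower and PORA was called higher, so the element was present in genes called in either direction. It lay 23 bases before the start in GRP7 and 172 bases in PORA.

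The study asks about transcription that runs past snRNA genes, so the distance to them was measured. None of the 10 members lay near an snRNA region of the deposited depth table: the closest was RVE5, 278 kb from atU2.9, and LHY was 1178 kb from the nearest one.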

How the data were processed

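The 6 libraries were made from total RNA after removal of ribosomal RNA and read as pairs of 100 bp, per the labels' protocols. Cuffdiff 2.2.1.3, TopHat2 2.0.14, SAMtools, Trim Galore 0.4.0 and CASAVA 1.8.2, with the build TAIR10, are named in the submitters' processing notes, without options. The authors deposited FPKM per gene and per start group, 1 value per genotype, in the Cuffdiff layout per the file headers. Each feature also has a p-value and a q-value from the authors; 1411 genes sit at the lowest p-value, 5.00e-05. A deposited signal table holds summed read depth over snRNA regions and was used for positions only.

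The authors' calls at q under 0.05 were used, because no test can be made on 1 value per genotype. The replicates are biological per the labels. Log2 ratios were recomputed from FPKM with no pseudocount, because the deposited ratio column holds spreadsheet errors. Of 33557 genes, 15512 were not tested and 7 were marked as too deep for the test. Adjusting the authors' p-values by Benjamini-Hochberg over the tested genes gave the deposited q-values to within 5.25e-07; the adjustment was also tested on simulated data. Deposited starts count from 0 and were raised by 1.

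Upstream sequences, motifs and repeated words of 50 bases come from the RefSeq genome and annotation of TAIR10.1, matched by locus. Python 3.11.15, numpy 2.4.6, pandas 2.3.3 and matplotlib 3.10.9 were used. The members and lists were chosen with earlier results of these data known. All members are named, from the lists every called gene, and a few uncalled ones.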

Additional observations from a re-analysis of the deposited data

How the results depend on the processing

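The 5 called members, 4 higher and 1 lower, were the same 5 genes at q under 0.01, at an unadjusted p under 0.05 and with at least a 1.5-fold change required. Of all tested genes, 13.7%, 33.7% and 13.8% were called by these 3 rules in turn. The 5 called start groups were shared by the same rules, and an unadjusted p under 0.05 added group 2 of LHY for 6 in all, beside 10.7%, 28.8% and 11.4% of all tested start groups. A minimum of 1 FPKM in either genotype removed no tested gene, since all 18038 met it, and so could change no call. The pathway genes called numbered 26 as reported and from 19 to 29 over the same settings. Adding a constant to both levels cannot turn the sign of a ratio, and the summed start groups repeat the gene values. Rescaling FPKM to the same sum shifted every log2 ratio by −0.07, and the median of tested genes used for centring was −0.0035, both small beside the ratios of the called members. With 1 FPKM added, LHY went from 4.00 to 2.52 and RVE8 from 1.27 to 0.77. No paired analysis was possible because the deposited tables hold 1 value per genotype for these genes; leaving out a replicate was not run for the same reason. Depth per library is unknown here, so how far it limits the uncalled members is unknown too.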

Other observations

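Across the whole gene table, the evening element lay within 250 bases before the start of 4.60% of 1695 protein-coding genes called lower, 2.70% of 2224 called higher and 2.34% of 13455 tested and not called. Within 1000 bases these shares were 10.9%, 7.64% and 6.85%. The CCA1-binding site lay within 250 bases in 6.02%, 7.42% and 6.92% of the same classes, and the G-box in 8.26%, 8.23% and 7.06%. These are descriptions of annotated start regions, with no test.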
